A study of Mus musculus with 8 samples.

Results

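Prdm1, Irf4, Irf8, Maf, Pou2af1, Ascl2 and Xbp1 encode transcription regulators that work beside, with or against Bcl6 in activated lymphocytes. They were followed here in mouse CD4 T cells with and without the Bcl6 gene. These 7 genes were chosen by name out of 19938 genes that had a probe set of their own in the platform annotation, and each had a single such probe set. They lie on chromosomes 10 (Prdm1), 13 (Irf4), 8 (Irf8 and Maf), 9 (Pou2af1), 7 (Ascl2) and 11 (Xbp1). Naive CD4 T cells had been sorted from wild-type mice (4 arrays, labelled WT) and from mice with a conditional Bcl6-/- deletion restricted to T cells (4 arrays, labelled KO). The culture was the same for both groups: 24 hours of stimulation through CD3 and CD28 by antibody, in place of antigen, with IL-4, IFNg and TGFb blocked by antibodies and IL-6 plus IL-21 added. The labels call the cells follicular helper T (Tfh) cells, which here means naive cells early in a Tfh-directed culture. The Cre driver, the strain, the age of the mice and whether each array came from a separate mouse are not given in the sources used here, so p-values measure the spread between these arrays, which may be technical.

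Follicular helper T cells carry help to B cells in germinal centres, and the repressor Bcl6 is required for their formation. Blimp1, the product of Prdm1, is a zinc finger repressor that opposes Bcl6: each represses the gene of the other, in T cells as in B cells, and Blimp1 drives the plasma cell and effector fates. Irf4 and Irf8 are interferon regulatory factors that bind DNA weakly alone and pair with AP-1 or ETS family proteins, c-Maf is a basic leucine zipper activator of IL-21 and IL-4, Pou2af1 (also OCA-B or Bob1) is a coactivator that clamps Oct1 and Oct2 onto octamer sites, Ascl2 is a basic helix-loop-helix factor able to induce Cxcr5, and Xbp1 activates the secretory programme that plasma cells need.

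Signal is given on the log2 scale after RMA, so a difference of 1 is a 2-fold change, and levels of different probe sets cannot be set against one another. Over the genes tested the arrays correlated at 0.986 or more with one another. KO replicate 1 stood apart: its median deviation from its group was 0.115, against 0.035 to 0.0725 in the other 7 arrays, and the array most like it was WT replicate 3. Results for the 7 genes, and for some of the other genes, are therefore also given without KO replicate 1. The targeted gene did not check the labels: mean Bcl6 signal was 8.77 ± 0.123 in WT and 9.15 ± 0.0497 in KO (SD, n = 4; limma adjusted p = 0.0303, and 0.0595 without the filter on low values), a direction that goes against the label, and the position of its probes against the deleted part is not given in the sources used here. Directions below are those of the arrays as labelled. T cell identity was plain in every array, with Cd3e between 12.97 and 13.14 and Cd4 between 12.38 and 12.56. The B cell markers Ms4a1 and Cd79a, the plasma cell marker Jchain and the myeloid markers Itgax, Csf1r and Lyz2 lay under the filter on low values in all 8 arrays.

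The promoter windows of 3 of the genes are shown because their own regulators, among them other members of the group, are part of the question. Each window runs from 250 bases before to 50 bases after an annotated RefSeq start site (build GRCm38.p6), and 6 of the 7 genes, all but Maf, had 7 windows. Irf8 had 2 of these windows, and only the first is shown. Capitals mark a match to AP-1-like letters (TGANTCA, where N is any base) in Prdm1, to a STAT-like pair (TTCNNNGAA) in Irf8 and to an Xbp1-like site (TGACGTG) in Pou2af1. The STAT-like letters were added after the windows had been read.
Prdm1, chr10:44458699-44458998, minus strand: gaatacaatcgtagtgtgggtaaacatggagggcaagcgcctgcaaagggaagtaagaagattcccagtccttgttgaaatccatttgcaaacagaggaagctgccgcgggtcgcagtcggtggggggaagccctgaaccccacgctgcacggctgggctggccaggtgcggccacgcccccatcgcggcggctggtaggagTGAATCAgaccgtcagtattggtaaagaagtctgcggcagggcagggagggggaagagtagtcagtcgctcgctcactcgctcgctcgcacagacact
Irf8, chr8:120736108-120736407, plus strand: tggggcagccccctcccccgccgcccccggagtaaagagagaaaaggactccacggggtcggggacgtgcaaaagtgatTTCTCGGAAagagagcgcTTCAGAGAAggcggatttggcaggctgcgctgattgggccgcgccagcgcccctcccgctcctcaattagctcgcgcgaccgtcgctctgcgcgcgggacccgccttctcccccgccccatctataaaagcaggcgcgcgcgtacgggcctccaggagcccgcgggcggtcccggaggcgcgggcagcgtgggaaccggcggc
Pou2af1, chr9:51213440-51213739, plus strand: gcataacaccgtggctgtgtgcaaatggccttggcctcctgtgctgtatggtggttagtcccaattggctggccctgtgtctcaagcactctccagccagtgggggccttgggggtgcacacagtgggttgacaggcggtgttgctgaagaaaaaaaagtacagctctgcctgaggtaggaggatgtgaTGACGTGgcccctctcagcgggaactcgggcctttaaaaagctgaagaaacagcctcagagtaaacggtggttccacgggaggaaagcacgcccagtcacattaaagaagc

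Of all 32851 promoter windows of this length, 7.81% held the AP-1-like letters, 8.30% the STAT-like letters and 2.01% the Xbp1-like letters, on either strand. Counted from the start site, the Irf8 window shown held STAT-like matches at -171 and -153, and the other Irf8 window held none. The Xbp1-like match in Pou2af1 began at -61 and the AP-1-like match in Prdm1 at -48. The letters for a Bcl6-like site (TTCCTNGAA, a special case of the STAT-like letters, in 1.59% of all windows) were in none of the 7 windows. Nor were those for an IRF pair (GAAANNGAA, 8.56%), an ETS-IRF pair (GGAANNGAA, which differs from it by 1 letter, 8.24%), a Blimp1-like site (AGNGAAAG, 8.63%), an octamer (ATGCAAAT, 1.74%) or a Maf-like site (TGCTGAC, 4.67%). E boxes (CANNTG), the sites of Ascl2 and E proteins, were in 6 of the 7 windows and in 72.3% of all windows. A match of letters is a description of these windows and not evidence of binding.

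Among the 7 genes, Irf8 and Pou2af1 had the largest differences, both with lower signal under the KO label, and neither passed the test over all genes. A gene entered that test when at least 4 arrays showed it above a floor at the 40th percentile, which was 6.91 to 7.15 depending on the array. The floor was passed by 5 of the 7, whereas Prdm1 and Ascl2 lay under it in all 8 arrays. None of the 5 had a limma adjusted p under 0.05, where 157 of 11926 tested genes did (1.32%; 0.646% higher and 0.671% lower in KO). At an unadjusted p under 0.05, 2 of the 5 (Irf8 and Pou2af1, both lower) were counted, against 16.6% of all tested genes in either direction and 10.5% in the lower direction. The groups did not overlap in 1 of the 7 genes, Pou2af1, against 7.35% of all named genes, and among tested genes 10.8% did not overlap, 7.66% with KO lower. The median difference was -0.02 over the 5 and -0.02 over all tested genes.

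**Figure D1:**
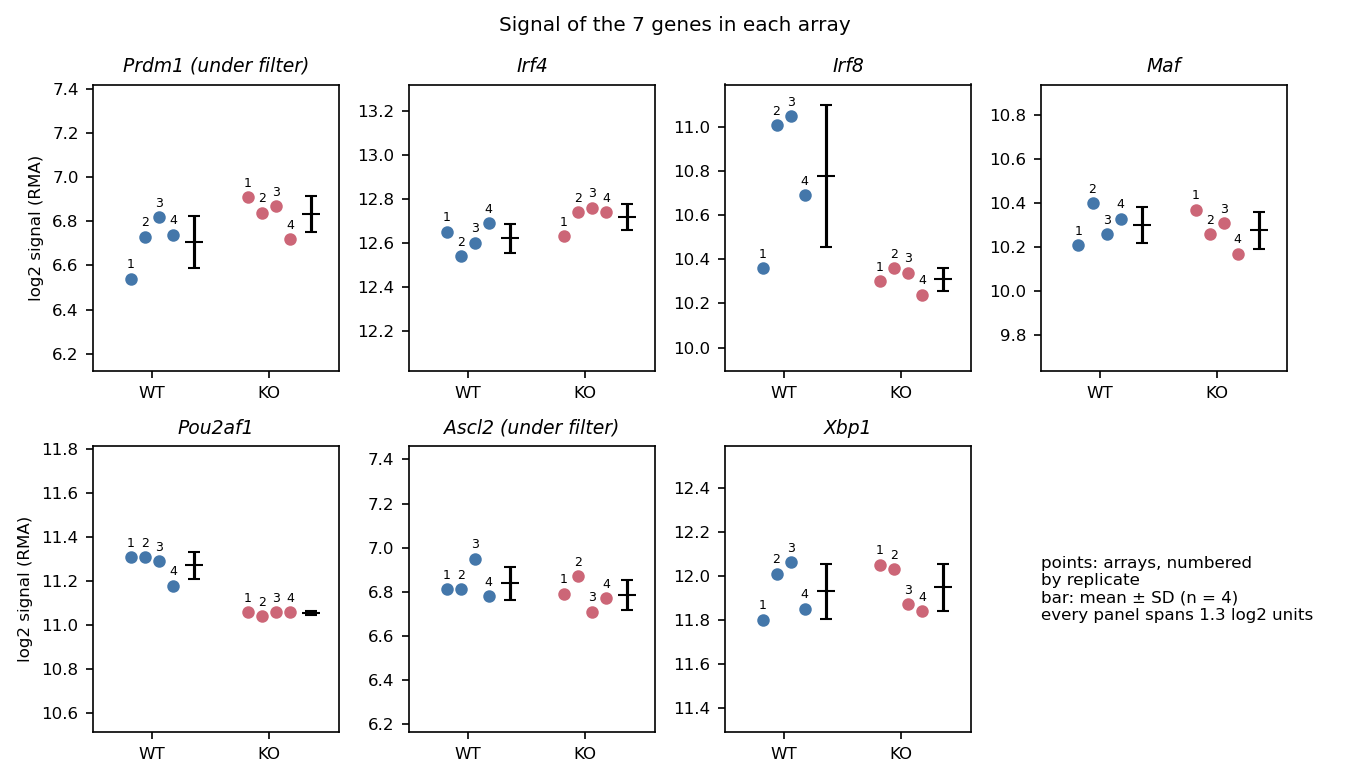
Log2 signal (vertical axis) of each of the 7 genes in the 4 WT-labelled (blue) and 4 KO-labelled (red) arrays, numbered by replicate, with the mean and SD at the right of each group. Pou2af1 alone separates the groups, at 11.18 to 11.31 against 11.04 to 11.06, and Irf8 spans 10.36 to 11.05 in the WT-labelled arrays against 10.24 to 10.36 in the KO-labelled ones.

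Prdm1, the gene of Blimp1 and the classical counterpart of Bcl6, gave little signal in either group. Its values were 6.54, 6.73, 6.82 and 6.74 in WT replicates 1 to 4 and 6.91, 6.84, 6.87 and 6.72 in KO replicates 1 to 4. The groups overlapped, since KO replicate 4 lay below WT replicates 2, 3 and 4. The difference was 0.13 (6.71 ± 0.119 against 6.83 ± 0.0819, SD, n = 4; exact permutation p = 0.143, two-sided, where the smallest possible is 0.0286). In the limma fit without a filter its 95% interval ran from -0.03 to 0.29, or 0.979-fold to 1.22-fold, with an adjusted p of 0.604. The interval includes 0. Without KO replicate 1 the difference was 0.10 (exact permutation p = 0.229).

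The within-array difference of Prdm1 and Bcl6 signals was lower in KO (-0.25, exact permutation p = 0.0571), but with Prdm1 under the filter in all 8 arrays it says little beyond the change of Bcl6 itself. Bcl6 was higher by 0.38 and Prdm1 by 0.13.

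Irf4, induced by T cell receptor signalling and needed for effector and Tfh differentiation, was strongly expressed in every array. It stood at 12.65, 12.54, 12.60 and 12.69 in WT replicates 1 to 4 and at 12.63, 12.74, 12.76 and 12.74 in KO replicates 1 to 4. All KO-labelled arrays but replicate 1 lay above every WT-labelled array. The difference was 0.10 ± 0.0514 (SE), a 1.07-fold change with a 95% interval of -0.02 to 0.21 (limma adjusted p = 0.39, exact permutation p = 0.0857). Without KO replicate 1 it was 0.13 (limma adjusted p = 0.122).

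Irf8, the closest relative of Irf4 and best known for its part in B cells, dendritic cells and monocytes, had the largest difference of the 7. Its values were 10.36, 11.01, 11.05 and 10.69 in WT replicates 1 to 4 and 10.30, 10.36, 10.34 and 10.24 in KO replicates 1 to 4. The KO-labelled arrays were tightly grouped, while the WT-labelled arrays were spread widely, and WT replicate 1 sat at the KO level. Mean signal was 10.8 ± 0.322 in WT and 10.3 ± 0.0529 in KO (SD, n = 4), a difference of -0.47 ± 0.133 (SE; 95% interval -0.76 to -0.17), which is 1.38-fold higher in WT. The limma adjusted p was 0.116 and the exact permutation p 0.0571. Without WT replicate 1 the difference was -0.61 and passed (limma adjusted p = 0.0264), without KO replicate 1 it was -0.46 (0.0791), and without WT replicate 2 or 3 it was -0.39 or -0.38 (0.319 and 0.268). In bulk RNA, fewer cells that carry a transcript and less of it per cell cannot be told apart.

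The 2 interferon regulatory factors were also set against each other within each array, a comparison that did not pass after adjustment. Irf4 minus Irf8 was 2.29, 1.53, 1.55 and 2.0 in WT replicates 1 to 4 and 2.33, 2.38, 2.42 and 2.50 in KO replicates 1 to 4. The groups did not overlap, although WT replicate 1 came close to KO replicate 1. The mean was 1.84 ± 0.369 in WT and 2.41 ± 0.0718 in KO (SD, n = 4), which differ by 0.565 (exact permutation p = 0.0286, the smallest possible, and 0.0571 after Benjamini-Hochberg adjustment over the 2 pairs of genes compared). The unadjusted call was lost after a second quantile normalization of the arrays and without any 1 of the KO-labelled arrays (exact permutation p = 0.0571 in each), with differences of 0.53 to 0.59.

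Maf, the gene of c-Maf, differed between the groups by less than its spread within them. It read 10.21, 10.40, 10.26 and 10.33 in WT replicates 1 to 4 and 10.37, 10.26, 10.31 and 10.17 in KO replicates 1 to 4. The ranges overlapped almost wholly. The difference was -0.02 ± 0.06 (SE), with a 95% interval of -0.16 to 0.11 or 0.892-fold to 1.09-fold (limma adjusted p = 0.914). Without KO replicate 1 it was -0.05 (limma adjusted p = 0.576).

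Pou2af1, the octamer coactivator, was lower in every KO-labelled array than in every WT-labelled array. Its values were 11.31, 11.31, 11.29 and 11.18 in WT replicates 1 to 4 and 11.06, 11.04, 11.06 and 11.06 in KO replicates 1 to 4. The KO-labelled arrays lay almost on one value, and WT replicate 4 was the WT array nearest to them. Mean signal was 11.3 ± 0.0624 in WT and 11.1 ± 0.01 in KO (SD, n = 4), a difference of -0.22 ± 0.0456 (SE; 95% interval -0.32 to -0.12), or 1.16-fold higher in WT. It just missed the threshold (limma adjusted p = 0.0525, exact permutation p = 0.0286). It passed without KO replicate 1 (limma adjusted p = 0.0261) and without WT replicate 4 (0.0397), and not in the other 6 fits with 1 array left out, where the adjusted p lay between 0.103 and 0.195. The 8 differences ran from -0.25 to -0.205. Further settings on either side of the threshold are given in the closing section.

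Ascl2, which can start Cxcr5 expression when forced into T cells, lay under the filter. It read 6.81, 6.81, 6.95 and 6.78 in WT replicates 1 to 4 and 6.79, 6.87, 6.71 and 6.77 in KO replicates 1 to 4. The groups overlapped throughout. The difference was -0.05 (6.84 ± 0.0763 against 6.79 ± 0.0661, SD, n = 4, exact permutation p = 0.343). Its 95% interval was -0.18 to 0.08 in the limma fit without a filter. Without KO replicate 1 the difference was -0.05 (exact permutation p = 0.4).

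Xbp1, the secretory regulator, was strongly expressed and did not separate the groups. Its values were 11.80, 12.01, 12.06 and 11.85 in WT replicates 1 to 4 and 12.05, 12.03, 11.87 and 11.84 in KO replicates 1 to 4. Both groups covered nearly the same range. The difference was 0.02 ± 0.0749 (SE), with a 95% interval of -0.15 to 0.18 or 0.899-fold to 1.14-fold (limma adjusted p = 0.948). Without KO replicate 1 it turned to -0.017 (limma adjusted p = 0.904). Among the WT-labelled arrays Xbp1 and Irf8 were ordered alike, with replicate 3 highest, then 2, 4 and 1.

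**Figure D2:**
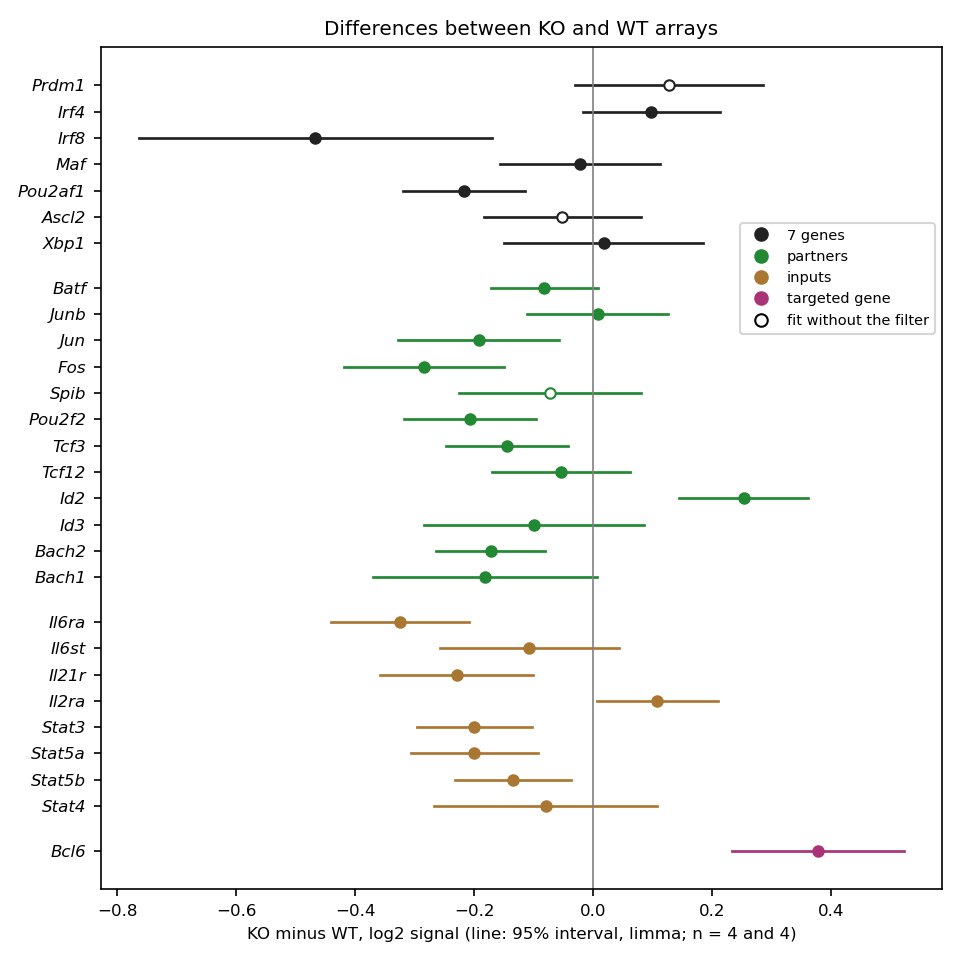
Difference between KO-labelled and WT-labelled arrays (horizontal axis, log2 signal) with its 95% interval for the 7 genes, a selection of their partners and of cytokine inputs, and Bcl6; open circles are genes under the filter, fitted without it. The intervals of Irf8 (-0.76 to -0.17) and Pou2af1 (-0.32 to -0.12) lie below 0, and those of Prdm1, Irf4, Maf, Ascl2 and Xbp1 include it.

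Leaving out 1 array at a time moved adjusted p-values far more than differences. Irf4 stayed between 0.07 and 0.13, Irf8 between -0.61 and -0.38 and Pou2af1 between -0.25 and -0.205 in these 8 fits. Maf ran from -0.05 to 0.01 and Xbp1 from -0.03 to 0.06, so neither kept a sign. The number of all genes past the threshold ran from 31 (without WT replicate 2) to 782 (without KO replicate 1) against 157 with all arrays.

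**Figure D3:**
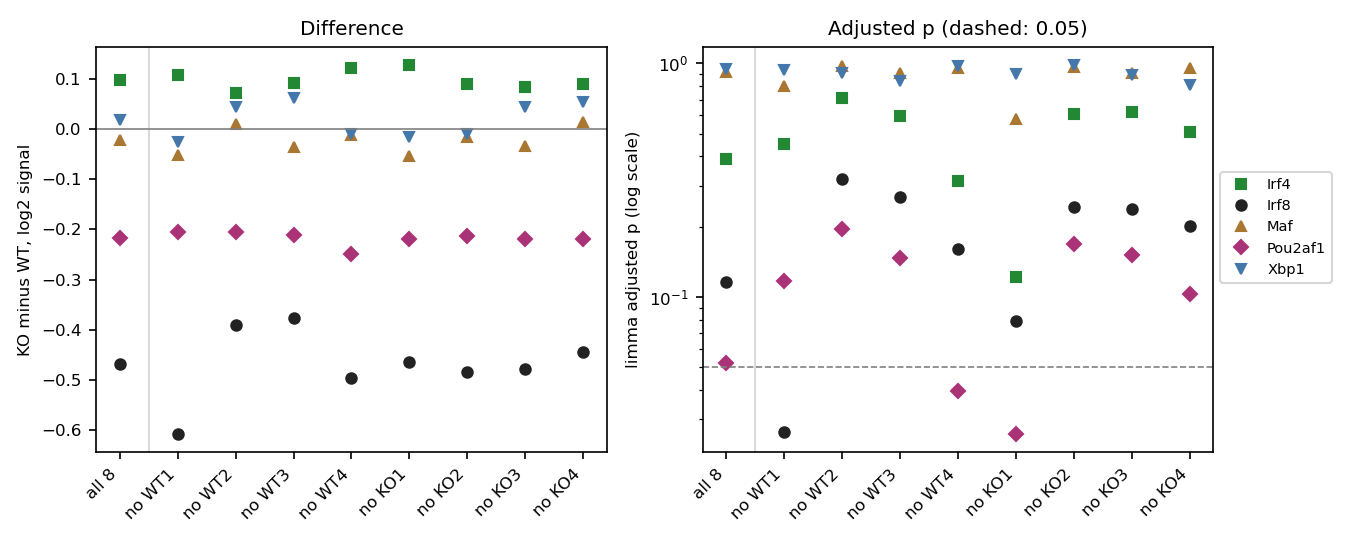
Left, the difference between KO-labelled and WT-labelled arrays (log2 signal) for the 5 tested genes with all 8 arrays and with each array left out. Right, the limma adjusted p of the same fits on a log axis with the threshold of 0.05 dashed: Irf8 falls below it without WT replicate 1 (0.0264), and Pou2af1 without WT replicate 4 (0.0397) or KO replicate 1 (0.0261).

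The partners and relatives of the 7 genes were then read from lists chosen by function. In the octamer group the other tested gene, Pou2f2, which encodes the Oct2 protein that Pou2af1 binds, also lay lower in every KO-labelled array. Pou2f2 read 9.34, 9.32, 9.43 and 9.39 in WT replicates 1 to 4 and 9.14, 9.26, 9.13 and 9.12 in KO replicates 1 to 4. The difference was -0.21 ± 0.05 (SE; limma adjusted p = 0.0782), and -0.20 without KO replicate 1 (0.0485). Neither of the 2 tested genes of this list passed with all arrays, and Pou2f3 and Obox6 lay under the filter. Pou2f1, the gene of Oct1, was not analysed here.

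In the interferon regulatory factor family none of 7 tested genes passed, 5 of them with a negative difference, and the median was -0.05. Irf1, an interferon-induced activator, lay lower in all KO-labelled arrays (9.87 ± 0.0492 against 9.69 ± 0.0925, SD, n = 4; limma adjusted p = 0.146), and Irf7 lay under the filter. Of the AP-1, ETS and Ikaros partners of Irf4 and Irf8, none of 12 tested passed, 10 had a negative difference and the median was -0.09. Fos, an AP-1 subunit, differed by -0.28 (limma adjusted p = 0.0539; 0.0241 without KO replicate 1) and Jun by -0.19 (0.149). The ETS factors Spi1 and Spib, with which Irf8 pairs in myeloid and B cells, were under the filter in all 8 arrays.

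The next list held achaete-scute factors and E proteins, which bind E boxes as Ascl2 does, and the Id inhibitors, which do not bind DNA. Of its 9 tested genes 1 passed. Id2, which keeps E proteins off DNA, rose from 12.3 ± 0.067 to 12.6 ± 0.0374 (SD, n = 4; limma adjusted p = 0.0462), and 7 of the 9 had a negative difference (median -0.06). Its call was lost in 7 of the 8 fits with 1 array left out (limma adjusted p up to 0.143), all but that without KO replicate 1. None of 10 tested Maf, Bach and Nfe2 genes passed, with 9 negative and a median of -0.03. Bach2, a repressor of the Blimp1 gene, lay between 11.36 and 11.43 in WT and between 11.19 and 11.24 in KO (a difference of -0.17, limma adjusted p = 0.0763; 0.03 without KO replicate 1). Nfe2l2, the oxidative stress regulator, differed by -0.23 (limma adjusted p = 0.133). In the PRDM family none of 7 tested passed and 6 were negative (median -0.10), with Prdm15 (-0.16, limma adjusted p = 0.107) and Prdm2 (-0.12, 0.23) closest.

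The list of Prdm1 inducers included 2 calls. It holds receptors and signal carriers, among them those of the IL-6 and IL-21 given in the culture. The cytokine genes Il2 and Il21 and the transcription regulators Foxo1, Klf2, Zeb2 and Id2 are in it too. Of 16 tested, 1 fell (Il6ra) and 1 rose (Id2, which this list also holds), 11 had a negative difference and the median was -0.12. At an unadjusted p under 0.05, 8 were lower and 3 higher, where 10.5% of all tested genes were lower and 16.6% were counted in either direction at that level. Il6ra, the IL-6 receptor, went from 10.6 ± 0.0532 to 10.2 ± 0.0716 (SD, n = 4), lower by 0.32 on average (difference -0.32 ± 0.0518, SE; limma adjusted p = 0.0227). Its call held in 3 of the 8 fits with 1 array left out, with limma adjusted p up to 0.104 in the rest. Of others, chosen after their values were seen, Stat3, which carries IL-6 and IL-21 signals, read 11.82 to 11.92 in WT and 11.63 to 11.68 in KO (a difference of -0.20, limma adjusted p = 0.0574). Stat5a, which carries IL-2 signals, differed by -0.20 as well (0.0763) and Il21r by -0.23 (0.0851), with no overlap in either. Without KO replicate 1 these 3 passed (limma adjusted p = 0.0285, 0.0457 and 0.0104). In that setting 782 of all 11926 tested genes passed, against 157 with all arrays.

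With all arrays, genes downstream of the 7 gave no call apart from that of Bcl6, the targeted gene. Of 11 tested genes known to be repressed by Blimp1, 7 had a negative difference (median -0.10). Only Bcl6 passed, and it was higher. As the targeted gene, Bcl6 is no readout of Blimp1 here. Its call held in 3 of the 8 fits with 1 array left out, among them that without KO replicate 1 (limma adjusted p = 0.0104). In the rest the limma adjusted p was up to 0.11. None of 7 tested genes induced by Blimp1 and Irf4 in effector T cells passed (5 negative, median -0.05). The inhibitory receptor genes Lag3 (-0.28, limma adjusted p = 0.0626) and Tigit (-0.28, 0.0861) were closest. Without KO replicate 1 Lag3 passed (-0.31, limma adjusted p = 0.0159) and Tigit did not. Il10, a target of Blimp1 and c-Maf, was above the filter in 1 of 8 arrays, at 5.85 to 6.56 in WT and 6.52 to 7.06 in KO (0.50 without the filter, limma adjusted p = 0.258). None of 9 tested c-Maf targets passed (5 negative, median -0.02); the nearest were the inhibitory receptor gene Pdcd1 (-0.21, limma adjusted p = 0.0931) and the cytokine gene Il21 (0.11, 0.268). Of 11 tested genes responsive to Ascl2, the targeted gene Bcl6 alone passed, and the median was -0.02.

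With all arrays the secretory programme under Xbp1 gave no call. None of its 36 tested genes passed, 19 had a negative and 17 a positive difference, and the median was -0.01. Sdf2l1, an endoplasmic reticulum chaperone component, had the smallest p, with a difference of 0.18 (11.8 ± 0.0275 against 12.0 ± 0.0723, SD, n = 4, limma adjusted p = 0.097). Dnajc3, a co-chaperone, differed by -0.17 (limma adjusted p = 0.145). Without KO replicate 1 Sdf2l1 passed (0.20, limma adjusted p = 0.042). The list held 1 call with an intensity trend and robust prior and 3 with array weights, where 354 and 1980 of all tested genes passed. Hspa5, the central chaperone BiP, stood at 12.8 in both groups. Over all tested genes 6905 of 11926 had a negative difference and the median was -0.02, which is the background for the counts of this and the preceding lists.

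**Figure D4:**
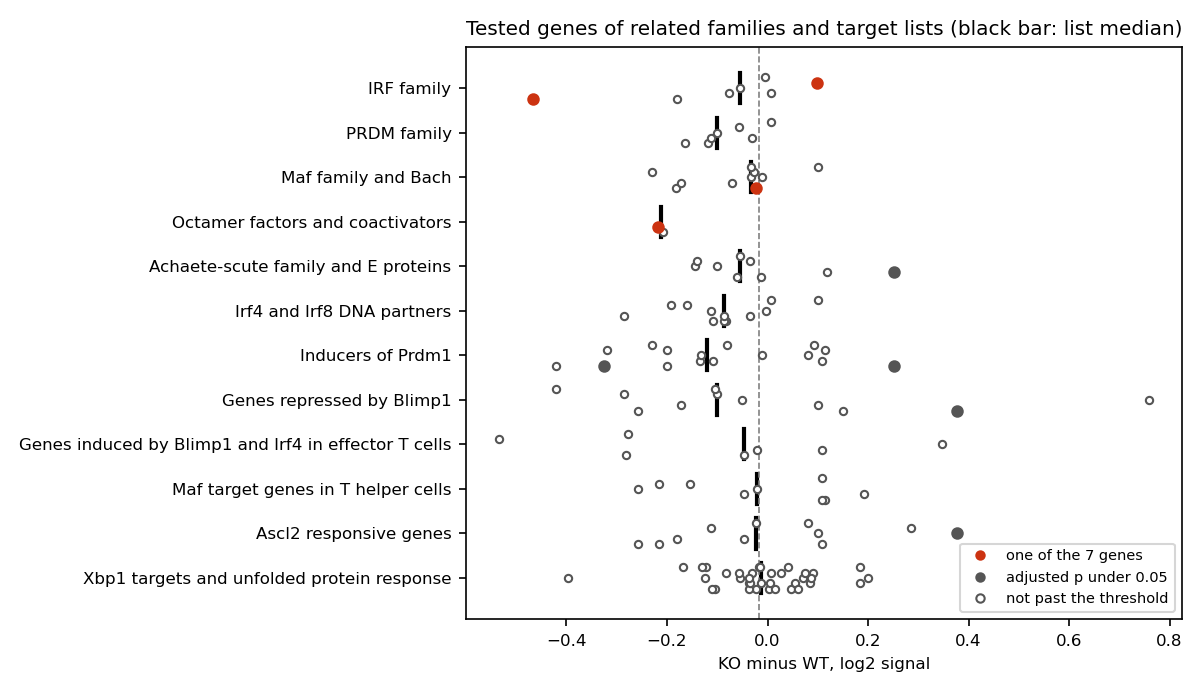
Difference between KO-labelled and WT-labelled arrays (horizontal axis, log2 signal) for each tested gene of the related lists; red marks the 7 genes, none of which passed, filled grey other genes past the threshold, the black bar the list median and the dashed line the median of all tested genes (-0.02). The list medians lie between -0.21 (octamer factors, 2 genes) and -0.01 (Xbp1 targets, 36 genes).

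Markers of other cells that express these regulators are given beside Irf8 and Pou2af1, both familiar from B cells. Of 16 B cell markers on the array 3 were above the filter and none passed, and the mean over the 16 lay between 6.29 and 6.39 in WT and between 6.21 and 6.47 in KO. Cd72, a B cell receptor regulator, differed by -0.40 (limma adjusted p = 0.102; 0.0223 without KO replicate 1). Ighm, the IgM heavy chain, differed by 0.14 (0.561), and Cd79b, a B cell receptor component, read 7.53 to 7.63 in WT and 7.33 to 7.62 in KO. Of 21 dendritic and myeloid markers 7 were tested and none passed, with means of 6.92 to 7.01 and 6.91 to 7.02. Cst3, a protease inhibitor of many cell types, read 11.81 to 11.92 in WT and 11.67 to 11.75 in KO without overlap (a difference of -0.16, limma adjusted p = 0.118), and Cd68, a macrophage marker, differed by -0.18 (0.366). Of 10 plasma cell markers 7 were tested and none passed, with means of 8.20 to 8.30 and 8.17 to 8.24. Slamf7 (-0.25, limma adjusted p = 0.152) and Txndc5 (-0.12, 0.223) were lower in every KO-labelled array, and Sdc1 read 7.54 to 7.72. Signal of these lists was therefore mixed: Ms4a1, Cd79a, Jchain, Itgax, Csf1r and Lyz2 were under the filter, and the other genes named here passed it. The part of these markers in the values of Irf8 and Pou2af1 was not tested.

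Over the 20 lists the array means of the groups did not overlap in 4, each lower in KO: the interferon regulatory factor family (9.65 to 9.75 against 9.59 to 9.64), which holds Irf8 itself, the partners of Irf4 and Irf8 (9.069 to 9.140 against 8.988 to 9.066), and the markers of CD8 T and NK cells and of regulatory T cells. For the 12 CD8 T and NK cell genes the array mean was 7.31, 7.57, 7.61 and 7.33 in WT replicates 1 to 4 and 7.12, 7.17, 7.21 and 7.29 in KO replicates 1 to 4, highest in the same WT replicates, 2 and 3, as Irf8. Unlike lists were highest there too. In WT replicates 1 to 4 the Maf and Bach genes read 8.80, 8.90, 8.89 and 8.82, and the genes repressed by Blimp1 9.11, 9.22, 9.20 and 9.13. None of the 7 tested CD8 T and NK cell genes passed, 6 were negative and the median was -0.44, and 4 of the 7 did not overlap, all lower in KO, against 7.66% of all tested genes. Ctsw, a protease of cytotoxic cells, read 8.95 to 9.53 in WT and 8.64 to 8.87 in KO (a difference of -0.52, limma adjusted p = 0.0696). Crtam, a receptor of activated cytotoxic T cells, read 9.91 to 10.26 and 9.09 to 9.69 (-0.54, 0.0763). Each passed in only 1 of the 8 fits with 1 array left out. For Ctsw it was that without WT replicate 4 (limma adjusted p = 0.0244, up to 0.208 in the rest). For Crtam it was that without KO replicate 1 (0.0199, up to 0.232 in the rest). The other 2 without overlap, chosen after their values were seen, were the granule genes Nkg7 (-0.89, limma adjusted p = 0.0947) and Prf1 (-0.44, 0.102). Eomes, a regulator of cytotoxic cells, differed by -0.37 (0.232). Klrd1, an NK receptor gene under the filter, differed by -0.39 in the fit without it (0.179). Cd8a overlapped (7.05 to 7.73 against 7.06 to 7.59), and so did Cd8b1 (9.44 to 9.75 against 9.35 to 9.83). Cd8b1 was the 1 tested gene of this list with a positive difference (0.03, limma adjusted p = 0.932). The NK markers Ncr1 and Klrb1c were under the filter in all 8 arrays. For the 11 regulatory T cell genes the mean was 10.18 to 10.37 in WT and 10.05 to 10.12 in KO, with no overlap. The genes themselves were split, with 6 negative and 5 positive differences from -0.915 to 0.43. Their median was -0.02, as over all tested genes. Of the 11, 5 did not overlap, 4 lower and 1 higher in KO, against 10.8% of all tested genes. With all arrays 1 passed, Gpr83, which was lower (-0.63, limma adjusted p = 0.00333). Without KO replicate 1 Foxp3 (-0.725, limma adjusted p = 0.0304) and Lrrc32 (-0.92, 0.031) passed as lower and Nrp1 (0.56, 0.0285) as higher. Without WT replicate 4 Foxp3 (-0.83, limma adjusted p = 0.0191) and Lrrc32 (-1.13, 0.00513) passed. In these fits 782 and 107 of all tested genes passed. The part of these too was not tested. The smallest p-values among T cell markers were those of Thy1 (0.24, limma adjusted p = 0.123) and Zap70 (-0.12, 0.25), and among activation markers those of Mki67 (0.20, 0.14) and Nr4a1 (-0.23, 0.184). Of these 4, Mki67 alone passed without KO replicate 1 (0.23, limma adjusted p = 0.0374).

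**Figure D5:**
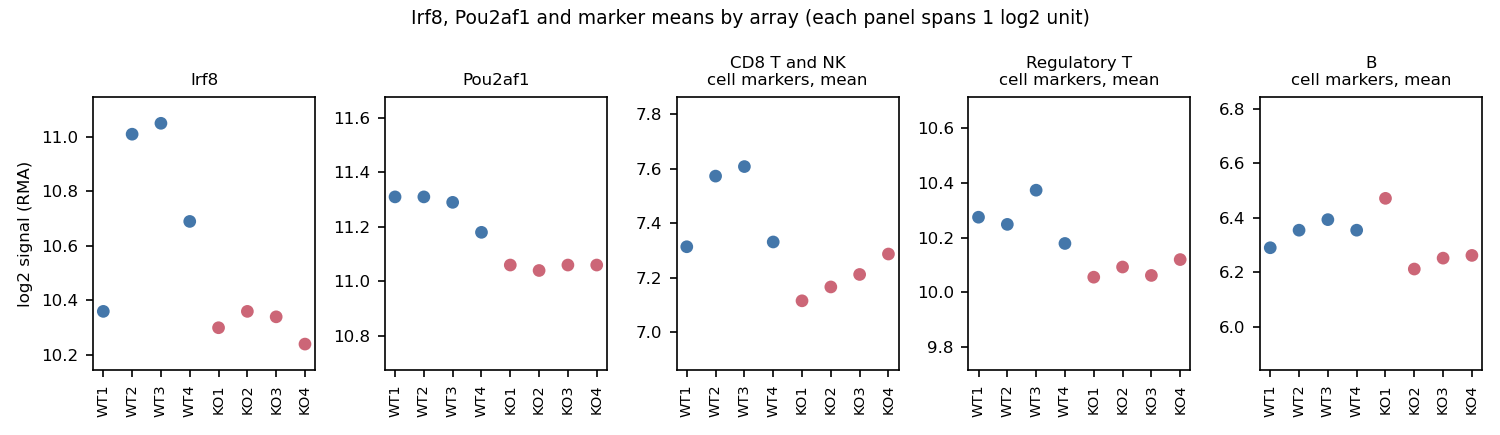
Log2 signal of Irf8 and Pou2af1 and the mean log2 signal of 3 marker lists in each array (blue WT-labelled, red KO-labelled; each panel spans 1 log2 unit on its own scale). Irf8 and the CD8 T and NK cell mean are both highest in WT replicates 2 and 3, as are means of other lists not drawn here. Pou2af1 is alike in WT replicates 1, 2 and 3 (11.31, 11.31 and 11.29).

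The genes most like each tested member across the 8 arrays, after removal of the group means, were taken from 11264 candidates by Pearson correlation and are a description only, because with 8 arrays many genes reach a high value and the arrays share their processing. For Irf8 they were Tnfrsf18, a costimulatory receptor (0.982), the cytokine gene Lif (0.978) and Inpp5d, a lipid phosphatase (0.975). For Pou2af1 they were the myosin light chain gene Myl6 (0.981), Ciz1 (0.980) and Tomm22 (0.971), and for Irf4 they were Orc5 (0.980), Zbtb44 (0.971) and Dipk2a (0.970). For Maf they were Lpar3 (0.987), Mplkip (0.985) and Oaf (0.969), and for Xbp1 Nagpa (0.989), Bcam (0.980) and Nucb1 (0.977). Among the 5 tested members themselves, Irf8 and Xbp1 were the most alike (0.767) and Irf4 and Xbp1 the most opposed (-0.72), with the others from -0.56 to 0.50. None of the 15 genes named as most like passed the threshold between the groups.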

How the data were processed

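Messenger RNA of 8 samples was measured on Affymetrix whole-transcript arrays from 100 ng of total RNA, per the labels' protocols. The authors deposited log2 values per probe set, which RMA and Partek produced, as the submitters' processing notes list them. Their versions and the order of steps are not given in the sources used here. RMA in its usual form equalises array distributions, so a change of total RNA per cell does not show in them. The number of arrays limits the precision. Of 35556 probe sets, 21789 had 1 gene symbol in the platform annotation and the one with the highest mean stood for its gene.

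Groups came from the sample titles. Genes above the 40th percentile of the array's named probe sets in at least 4 arrays were tested, and Bcl6 was kept at any level. Between groups, a two-sided limma test (version 3.58.1, R 4.3.3; lmFit, then eBayes, without a block) was adjusted by Benjamini-Hochberg over 11926 genes, with 0.05 as the threshold. Single values had an exact permutation test. Steps were tested on simulated data. The genes named were the 7 members, Bcl6, in each list every gene past the threshold or else the 2 with the smallest p, the defining markers and the 3 genes most like each tested member; others are named where a result turns on them. The members and the 20 lists were chosen with earlier results of these data known. Alternatives were other scalings, filters, variance models, probe set rules, a replicate block and arrays left out. The labels do not state that replicate numbers pair the arrays, so the numbers were not taken as pairs. Same-numbered arrays of the 2 groups deviated together at r of 0.0111, 0.145, -0.174 and 0.308. These values cannot decide whether the arrays are paired, because differently numbered arrays were not set beside them.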

Additional observations from a re-analysis of the deposited data

Results flagged for a closer look

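In 9 of 114 groups of 4 values 1 value stood apart from its 3 neighbours, where about 1 in 20 groups, here about 6, would do so by chance. The groups were those of the 7 genes, Bcl6, the genes named in each list for passing or for the smallest p, and the 20 list means. Other genes named above were not examined in this way. The distance was judged against the range of the 4 values, so it can be small in itself. Among the 7 genes these were Irf4 in KO replicate 1 (12.63, the others 12.74 to 12.76), Pou2af1 in WT replicate 4 (11.18, the others 11.29 to 11.31) and Pou2af1 in KO replicate 2 (11.04, the others 11.06). The last of these is a very small gap, counted because the other 3 values tie. Among related genes they were Irf1 in KO replicate 3 (9.55, the others 9.72 to 9.75), Pou2f2 in KO replicate 2 (9.26, the others 9.12 to 9.14), Lag3 in KO replicate 1 (10.55, the others 10.39 to 10.41) and Sdf2l1 in KO replicate 4 (12.14, the others 11.99 to 12.01). The means of the lists of Prdm1 inducers (11.13, the others 11.21 to 11.23) and of c-Maf targets (9.851, the others 9.95 to 9.97) were low in WT replicate 1.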

How the results depend on the processing

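The number of genes past the threshold, 157 (77 higher and 80 lower), was 322 (173 and 149) after a second quantile normalization, 78 (48 and 30) with arrays centred on their medians, 58 (37 and 21) without a filter, 354 with an intensity trend and robust prior, 1980 with array weights and 36 with the replicate block. It was 27 and 468 at thresholds of 0.01 and 0.1 and 31 to 782 with 1 array left out. Without KO replicate 1 and WT replicate 3 together, a setting chosen after seeing the data, it was 443. Of the 173 tested genes of all lists, 4 passed; the count was 10, 1, 9, 21, 53 and 1 under quantile normalization, no filter, a filter at the 50th percentile, the trend, array weights and the replicate block, 13 without those 2 arrays and 1 to 23 with 1 array left out. Pou2af1 passed after quantile normalization (-0.21, limma adjusted p = 0.0421), with the filter at the 50th percentile (-0.22, 0.0365), with the trend (-0.22, 0.0192) and with array weights (-0.24, 0.00281), and did not with centring (0.111), no filter (0.131) or the replicate block (0.124); with 1 array left out it ran from -0.25 to -0.205. With array weights Irf4 (0.16, limma adjusted p = 0.0257) and Irf8 (-0.55, 0.0138) passed as well, and Xbp1 turned to -0.046. With 1 array, or those 2, left out Irf8 ran from -0.61 to -0.37, Xbp1 from -0.026 to 0.061 and Maf from -0.067 to 0.013. Irf4 minus Irf8, 0.565, was 0.57 after quantile normalization (exact permutation p = 0.0571), 0.565 with the replicate block (0.125, the smallest 4 pairs allow) and 0.46 to 0.71 with 1 array left out. Prdm1 minus Bcl6, with Prdm1 under the filter, was -0.27 after quantile normalization and -0.30 to -0.20 with 1 array left out. Irf4, Irf8, Pou2af1, Prdm1 and Ascl2 kept their direction under every alternative run for them. The cause of these changes was not tested.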
